A study of Mus musculus with 25 samples.

Results

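The comparison described here asked how a hypercaloric diet eaten by the offspring alone, after weaning from dams on a regular diet, related to microRNAs (miRNAs) of the female hypothalamus. It set 3 RD-HCD female libraries against 3 RD-RD female libraries, 6 of the 25 samples of the study. Groups carry the dam's diet first and the offspring's diet second, where RD is the regular diet and HCD the hypercaloric diet with 52% fat and high sucrose. All mice were wild-type C57BL/6J aged 3 months. In both groups the dams ate RD, starting 1 month before mating and continuing until the end of lactation, so the groups differed in the diet of the daughters and not in that of their mothers. Small RNA was read with QIAseq libraries, in which each captured molecule carries a unique molecular identifier. No label ties a library to an animal, a dam or a litter, so the p-values reflect the spread between libraries, which may be technical. The authors' deposited table covers 9 libraries, those of HCD-HCD females among them. Whether the added libraries entered the normalisation and the spread behind the p-values is not given. All 1618 entries named as mouse miRNAs were taken, of 1721 entries in the table, the other 103 being Piwi-interacting RNAs (piRNAs). The authors' deposited table gives 1 fold and 1 unadjusted DESeq2 p for each miRNA and no value per library, so levels in single samples cannot be shown and the depth is unknown.

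A miRNA is cut from a hairpin transcript, and either arm of the hairpin (5p or 3p) can be loaded into an Argonaute protein. Bases 2 to 8 of the loaded strand, the seed, pair with messenger RNAs and lower their stability and translation. The hypothalamus holds the neurons that sense leptin, insulin and nutrients and set feeding and energy use, and its tissue also takes in glia, vessels, ependyma lining the ventricle and, depending on the dissection, pieces of choroid plexus or pituitary.

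The sequences below belong to the miRNAs with the smallest p-values in the comparison and to their close relatives, and are shown because pairs among them share a seed or a hairpin. They are RefSeq mature sequences on GRCm38.p6, written 5′ to 3′ with the seed in capitals. The first group lies in introns of receptor and channel genes. Mir1298 (chromosome X, positions 147064905 to 147065002) and Mir448 (147158210 to 147158321) are both in introns of Htr2c, the gene of the serotonin 2C receptor, on its strand. Mir204 (chromosome 19, 22750605 to 22750672) is in an intron of Trpm3, and Mir211 (chromosome 7, 64205806 to 64205911) in an intron of Trpm1, 2 related cation channel genes.
miR-1298-5p: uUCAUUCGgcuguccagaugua
miR-448-3p: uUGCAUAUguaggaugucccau
miR-204-5p: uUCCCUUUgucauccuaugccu
miR-211-5p: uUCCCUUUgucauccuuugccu
Counted from 1 at the 5′ end, miR-204-5p and miR-211-5p differ at 1 of 22 bases, A17U, and share the seed.

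The second group holds miRNAs of neurons and neuroendocrine cells. Mir153 (chromosome 12, 117250817 to 117250885) is in an intron of Ptprn2, a gene of secretory vesicles. Mir7b (chromosome 17, 56242988 to 56243098) overlaps no annotated host gene. Mature miR-7a-5p comes from Mir7-1 (chromosome 13, 58392779 to 58392886), in an intron of Hnrnpk, and from Mir7-2 (chromosome 7, 78888277 to 78888373), which has no host gene. Mir344d-1 (chromosome 7, 61683124 to 61683192) has none either.
miR-153-3p: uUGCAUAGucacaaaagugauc
miR-7b-5p: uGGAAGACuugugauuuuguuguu
miR-7a-5p: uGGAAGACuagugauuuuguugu
miR-344d-1-5p: aGUCAGGCugcuggcuauacacca
miR-7b-5p and miR-7a-5p have the same seed and differ by U10A over the 23 bases they share in position. miR-153-3p and miR-448-3p have the same bases 2 to 7 and part at the last seed base, G8U.

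The third group holds miRNAs with no function given here. Mir5627 (chromosome 12, 44210313 to 44210373) lies on the strand opposite to an exon of Dnajb9, which encodes a chaperone cofactor of the endoplasmic reticulum. Its hairpin is shown whole, with both arms in capitals, because both arms were among the miRNAs with the smallest p-values. The mature strands of Mir7004 (chromosome 2, 168640696 to 168640754) lie in an intron of Atp9a, and Mir6537 (chromosome 7, 25097066 to 25097175) overlaps an exon of Pou2f2. The miR-3474 strand (chromosome 2, 158638583 to 158638604) is in an intron of Actr5.
Mir5627 hairpin: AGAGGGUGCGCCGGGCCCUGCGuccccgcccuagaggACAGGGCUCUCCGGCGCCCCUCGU
miR-7004-5p: uUCCGUGGaugaggccugugccgu
miR-6537-5p: gUGAGUUUcucccacuggugac
miR-3474: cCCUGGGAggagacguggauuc
Host genes are those of GENCODE M21 on GRCm38. Where a hairpin overlaps an exon, fragments of the host messenger RNA could be counted with the miRNA, and whether this took place was not tested.

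No miRNA passed the test in RD-HCD females. With Benjamini-Hochberg adjustment over the 1497 miRNAs that have a DESeq2 p in the authors' deposited table, 0 had an adjusted p under 0.05 (0%) and the smallest adjusted p was 0.932. At an unadjusted p under 0.05 there were 15 miRNAs (1%), of which 5 were higher in RD-HCD (0.334%) and 10 were lower (0.668%). An even spread of p-values would put 74.85 there. The authors' deposited table adds a remark where the mean molecule count of a miRNA was below 10 in 1 group (106 miRNAs) or in both (559), or where it was 0 in both (103), which leaves 850 miRNAs with no remark. All 15 miRNAs were among the 847 of these that have a p (1.77%), where an even spread would put 42.35. Adjusting over those 847 alone gave a smallest adjusted p of 0.527 and again 0 calls. The p-values crowded towards 1, with 223 of the 847 (26.3%) above 0.9 in the authors' deposited table.

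**Figure D1:**
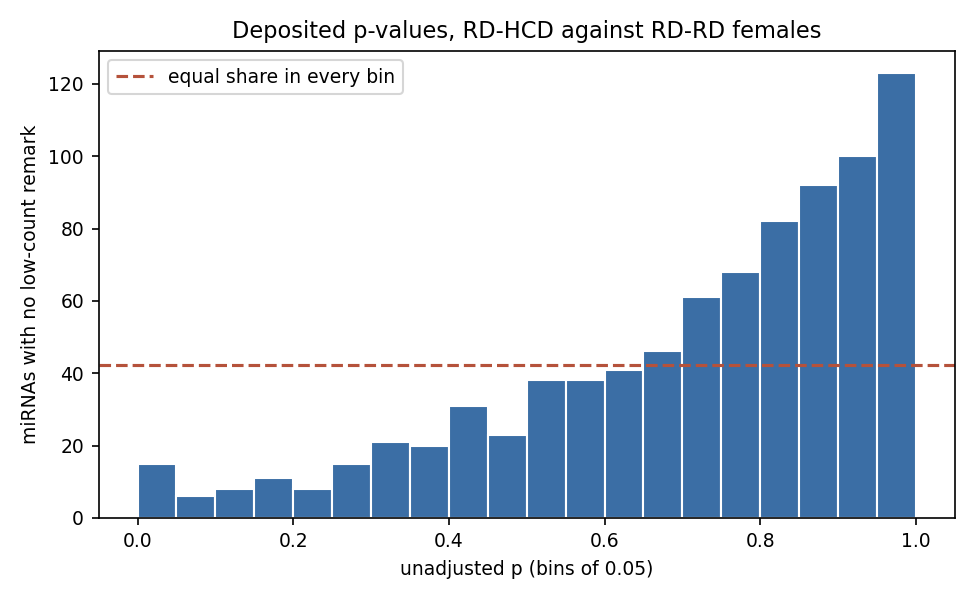
Number of miRNAs with no low-count remark (vertical axis) in bins of the deposited unadjusted p (horizontal axis) for RD-HCD against RD-RD females. The dashed line is the number per bin if the p-values were evenly spread, 42.35, and the bars below 0.5 all lie under it while those above 0.7 lie over it.

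Folds lay close to 1. Among the 847 miRNAs with no remark and a p, the fold of RD-HCD over RD-RD in the authors' deposited table had a median of 0.99 with quartiles of 0.92 and 1.07. The fold was above 1 for 390 of them, below 1 for 424 and equal to 1 for 33. Folds outside 0.8 to 1.25 were listed for 83 of the 847 (9.80%) in the authors' deposited table. A fold of at least 1.5 was listed for 7 higher and 20 lower miRNAs, and one of at least 2 for 1 higher and 4 lower miRNAs, in the authors' deposited table. Over all 1497 miRNAs with a p the median fold was 1.02, and the 535 with a mean below 10 in both groups and a p had deposited folds from 0.87 to 1.14.

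The precision of these folds was limited. The standard error of the log2 fold implied by fold and p in the authors' deposited table had a median of 0.40 over 441 miRNAs with no remark and a log2 fold of at least 0.1 in size, with quartiles of 0.33 and 0.43. The 95% interval of the fold lay within 0.5 to 2 for 241 of the 441 (54.6%) and within 1.5-fold either way for 2. It reached a fold of 2 or more at its upper end for 77 miRNAs, and 0.5 or less at its lower end for 123. The absence of calls is therefore not a measurement of equal levels. The implied error of miRNAs with a mean below 10 in both groups was smaller, with a median of 0.20, so it followed the low counts and is not used as a guide to precision. The sources used here do not give whether folds were shrunk towards 1 when the table was made.

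**Figure D2:**
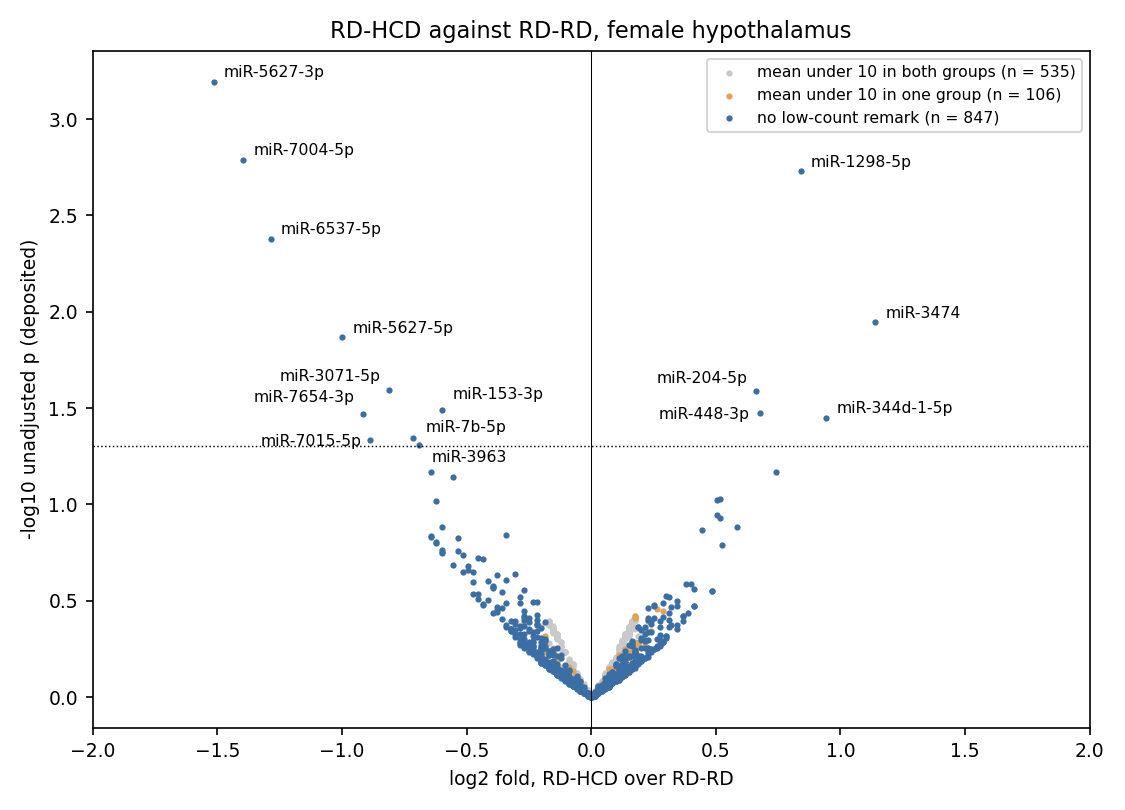
Deposited log2 fold of RD-HCD over RD-RD females (horizontal axis) against -log10 of the deposited unadjusted p (vertical axis), 1 point per miRNA, coloured by the low-count remark. The 15 named miRNAs, 5 to the right and 10 to the left, lie above the dotted line at the unadjusted threshold of 0.05. The 9 miRNAs with a mean of 0 in both groups and a p lie at a fold of 1, in pale grey and without a legend entry.

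Both Htr2c-intron miRNAs with a p under 0.05 had folds above 1. The serotonin 2C receptor acts in hypothalamic neurons that curb food intake and is also abundant in the choroid plexus. miR-1298-5p stood at 1.79 of the RD-RD level in RD-HCD females (95% interval 1.24 to 2.58, unadjusted p = 0.00187) in the authors' deposited table, and miR-448-3p at 1.6 (1.04 to 2.47, p = 0.0334). The other arms of both hairpins were nearer to 1, at 1.24 for miR-1298-3p and 0.96 for miR-448-5p in the authors' deposited table. Further strands from Htr2c introns had deposited folds of 1.18 for miR-1264-3p, 0.97 for miR-1264-5p, 1.05 for miR-1912-3p, 1.11 for miR-1912-5p, 0.94 for miR-764-3p and 1.03 for miR-764-5p in the authors' deposited table. These miRNAs were brought together after their values were seen. Folds of at least 1.5 were thus listed for 1 strand of each of 2 hairpins, and the other 8 strands lay between 0.94 and 1.24.

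miR-204, a miRNA abundant in the choroid plexus and the retinal pigment epithelium, was listed above 1 on both arms. miR-204-5p stood at 1.58 (1.06 to 2.36, p = 0.0258) and miR-204-3p at 1.5 (0.886 to 2.54, p = 0.131) in the authors' deposited table. miR-211-5p, with the same seed, stood at 1.27 (0.688 to 2.34, p = 0.445) there. Of 9 markers of choroid plexus and ependyma, 7 were above 1 and 1 below, with a median fold of 1.16 and a range of 0.95 to 1.58 in the authors' deposited table. Over all miRNAs with no remark, 390 of 847 were above 1. The list includes both arms of miR-204 and miR-211-5p. The ciliated-cell miRNAs of that list lay between 0.95 and 1.18 in the authors' deposited table. miR-34c-5p stood at 1.18, miR-34c-3p at 1.16, miR-34b-3p at 1.09, miR-34b-5p at 1.08, miR-449a-5p at 1 and miR-449c-5p at 0.95 there. A larger share of choroid plexus in the tissue and more of these miRNAs per cell cannot be told apart in bulk samples, and the part of choroid plexus in the values of miR-1298-5p and miR-448-3p was not tested.

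The 2 sequences of the miR-7 family, which is abundant in neuroendocrine cells of the hypothalamus and in the pituitary, lay at similar folds below 1. miR-7b-5p stood at 0.61 (0.376 to 0.99, p = 0.0454) and miR-7a-5p at 0.64 (0.396 to 1.03, p = 0.0682) in the authors' deposited table. As they part by the single substitution printed above, reads can be shared between them, and the values are not independent. Their passenger strands were listed at 0.75 for miR-7a-2-3p, 0.87 for miR-7b-3p and 1 for miR-7a-1-3p in the authors' deposited table. Of the 7 pituitary markers, which include miR-7a-5p itself, 6 were below 1, with a median of 0.92 in the authors' deposited table. Those other than miR-7a-5p lay between 0.76 (miR-200a-3p) and 1.15 (miR-375-3p) in the authors' deposited table. The part of pituitary tissue in the miR-7 values was not tested.

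miR-153-3p, a neuronal miRNA that represses proteins of synaptic vesicle release, stood at 0.66 (0.451 to 0.966, p = 0.0323) in the authors' deposited table. It lay below 1 while miR-448-3p, which differs from it in the seed only by G8U, lay above. miR-344d-1-5p, of a family found in the rodent brain, stood at 1.92 (1.05 to 3.53, p = 0.0354) in the authors' deposited table. The members that carry its seed and no remark, miR-344-5p and miR-344d-3-5p, were listed at 0.97 and 0.9 in the authors' deposited table. The interval of miR-344d-3-5p, 0.503 to 1.61, overlaps that of miR-344d-1-5p, and the difference between these members was not tested.

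miR-3071-5p stood at 0.57 (0.348 to 0.933, p = 0.0254) and its partner strand miR-3071-3p at 0.89 in the authors' deposited table. Its hairpin overlaps an exon of Rtl1, on the same strand (chromosome 12, 109595318 to 109595397), inside the imprinted Dlk1-Dio3 region. The large miRNA clusters of that region lie on the opposite strand and are made from the maternal chromosome, whereas Rtl1 is expressed from the paternal one. The transcript that gives miR-3071 was not examined.

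A last group holds the miRNAs of no role named here, among them those with the 2 smallest p-values of all. miR-5627-3p stood at 0.35 (0.192 to 0.639, p = 6.38e-04) and miR-5627-5p, from the other arm, at 0.5 (0.288 to 0.867, p = 0.0136) in the authors' deposited table. miR-7004-5p stood at 0.38 (0.208 to 0.694, p = 0.00162) and miR-6537-5p at 0.41 (0.223 to 0.755, p = 0.00417) in the authors' deposited table. Unlike miR-5627, miR-6537 had its arms apart, with miR-6537-3p at 1.07 in the authors' deposited table. miR-7654-3p stood at 0.53 (p = 0.0341), miR-7015-5p at 0.54 (p = 0.0462) and miR-3963 at 0.62 (p = 0.0493) in the authors' deposited table. Mir7654 (chromosome 8, 8690093 to 8690162) overlaps an exon of Arglu1, the mature strands of Mir7015 (chromosome 4, 120973259 to 120973317) lie in an intron of Smap2, and Mir3963 (chromosome 3, 151023792 to 151023862) has no host gene. The highest fold of all was 2.2 for miR-3474 (1.2 to 4.05, p = 0.0113) in the authors' deposited table. Of the intervals printed for this group, those of miR-5627-3p, miR-7004-5p and miR-6537-5p were the farthest below 1, yet none of the p-values remained under 0.05 after adjustment.

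**Figure D3:**
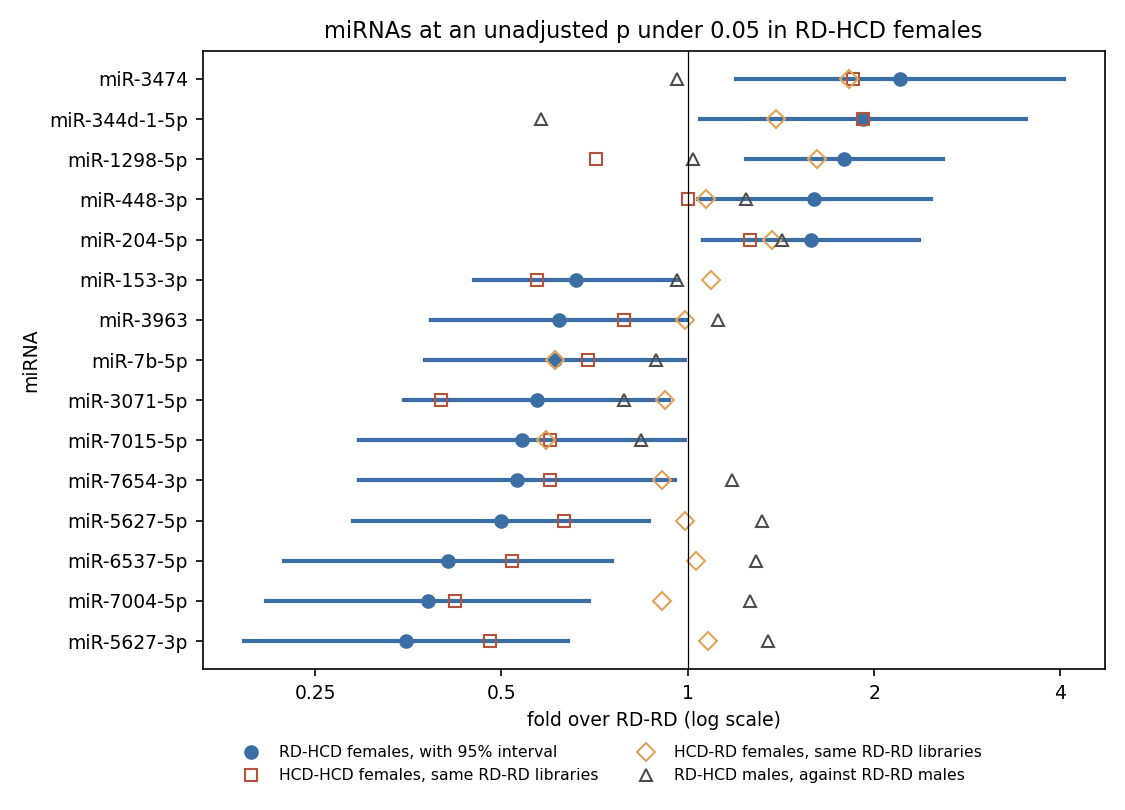
Deposited folds over RD-RD (horizontal axis, log scale) of the 15 miRNAs with an unadjusted p under 0.05 in RD-HCD females, with the implied 95% interval as a line, beside the folds of HCD-HCD and HCD-RD females over the same RD-RD libraries and of RD-HCD males over RD-RD males. miR-5627-3p, for example, lies at 0.35 in RD-HCD females and 0.48 in HCD-HCD females, and at 1.08 and 1.35 in HCD-RD females and RD-HCD males.

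Strands cut from the same hairpin were set side by side. Across the 228 hairpins with both arms free of a remark, the deposited log2 folds of the 5p and 3p strands had a Pearson correlation of 0.33 and a Spearman correlation of 0.30, as a description across hairpins that come from the same 6 libraries and the same normalisation. Both arms lay on the same side of 1 for 133 of the 228 (58.3%), and the median difference between arms was 0.14 on the log2 scale. Among the hairpins of the 15 miRNAs, both arms of Mir5627, Mir204 and Mir1298 were at least 1.24-fold from 1 in the same direction, while the arms of Mir448 and Mir6537 lay on opposite sides of it.

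Base composition and shared seeds were looked at next, as a description. Over the 732 miRNAs with no remark that matched a RefSeq mature sequence, of 1389 matched among all 1618, the percentage of G and C had a Pearson correlation of -0.04 and a Spearman correlation of 0.04 with the deposited log2 fold. The 10 lower miRNAs had a median of 55.5% G and C, from 33.3% to 81.8%, and the 5 higher ones a median of 45.5%, from 40.9% to 63.6%, beside 50% for the 732. Of 16 seeds shared by at least 3 miRNAs with no remark, 7 had a median log2 fold within 0.1 of 0. The lowest median fold was 0.84, for the seed AAUACUG of miR-200b-3p, miR-200c-3p and miR-429-3p, in the authors' deposited table. The highest was 1.23, for AUUGCAC, the seed of miR-25-3p, miR-32-5p, miR-92a-3p and miR-92b-3p, where miR-92a-3p stood at 1.43 (0.941 to 2.17, p = 0.0942) in the authors' deposited table. All 6 members of the miR-15 and miR-16 seed AGCAGCA lay above 1, between 1.01 and 1.16, and all 3 of the miR-130 and miR-301 seed AGUGCAA below 1, between 0.76 and 0.88, in the authors' deposited table. Members of a seed group can share reads.

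Among 21 lists of miRNAs by cell type, function or cluster, no member had an adjusted p under 0.05, and medians of the deposited folds lay between 0.92 and 1.16. They are read beside the medians of 1.02 over all miRNAs with a p and 0.99 over those with no remark. Of all 1497 miRNAs with a p, 833 were above 1 and 597 below. Of the 847 with no remark, 390 were above 1 and 424 below. Some miRNAs stand in more than 1 list, such as miR-200a-3p in the neuroendocrine, feeding and pituitary lists, so counts of different lists are not independent. All 21 neuron-enriched miRNAs had no low-count remark, so these markers of neurons were present in both groups, at levels that the table does not give. Of these 21, 16 were below 1 and 5 above, with a median of 0.94 and a range of 0.66 to 1.05 in the authors' deposited table. miR-124-3p, the most typical miRNA of neurons, stood at 1.05, miR-9-5p at 1.03 and miR-128-3p at 0.88 in the authors' deposited table. miR-137-3p, which acts in neuronal maturation, stood at 0.79 (0.576 to 1.08, p = 0.144) there.

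The miRNAs tied to hypothalamic and neuroendocrine cells were below 1 for 11 of 16, with a median of 0.94 in the authors' deposited table. The miR-200 family, which acts on leptin and insulin receptor signalling in the hypothalamus, was listed at 0.76 for miR-200a-3p (0.418 to 1.38), 0.8 for miR-200b-3p, 0.84 for miR-429-3p, 0.92 for miR-141-3p and 0.99 for miR-200c-3p in the authors' deposited table. In the list of feeding and leptin or insulin signalling, 12 of 19 were below 1, with a median of 0.96, from 0.72 (miR-33-5p) to 1.32 (miR-365-3p), as the authors' deposited table lists them. For miR-33-5p, an inhibitor of cholesterol export from cells, the fold had an interval of 0.424 to 1.22 (p = 0.224), and miR-103-3p and miR-107-3p, which lower insulin sensitivity in liver and fat, both stood at 1.07 in the authors' deposited table. Of 20 miRNAs of lipid and glucose metabolism, 12 were above 1 and 8 below, with a median of 1.02 in the authors' deposited table.

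Inflammation-related miRNAs were spread about 1, with 13 of 20 above it and a range of 0.77 to 1.22 in the authors' deposited table. miR-155-5p, which promotes inflammatory signalling, stood at 0.77 (0.44 to 1.35, p = 0.36), and miR-146a-5p, which restrains it, at 1.12 (0.789 to 1.59, p = 0.525) in the authors' deposited table. The microglia and leukocyte markers held miR-142a-5p at 0.7 (0.414 to 1.18, p = 0.183) and miR-223-3p at 1.02, with a median of 1.02 over 8, in the authors' deposited table. Erythrocyte markers had 5 of 6 above 1, with miR-451a at 1.03 and miR-486b-5p at 1.42 (0.92 to 2.19, p = 0.113) in the authors' deposited table. The member below 1 was miR-144-3p, at 0.87. Endothelial and mural markers had 8 of 11 above 1, with a median of 1.11 and miR-126a-3p at 0.99 in the authors' deposited table. In the list of muscle and liver markers, miR-133a-3p stood at 1.42 (0.94 to 2.14, p = 0.0954), miR-1a-3p at 1.36 and the liver miRNA miR-122-5p at 0.85 in the authors' deposited table. What these cell types contribute to the other values was not tested.

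The let-7 and miR-98 family, which represses growth and insulin signalling genes, had 8 of 11 members above 1 and a median of 1.06, with let-7b-5p highest at 1.3 (0.825 to 2.05, p = 0.258) and let-7c-5p at 1.1 (0.786 to 1.54, p = 0.579) in the authors' deposited table. Of 7 miR-29 strands, 5 were below 1 and 1 above, with miR-29b-3p at 0.74 (0.47 to 1.16, p = 0.193) in the authors' deposited table. Of 107 miRNAs of the Dlk1-Dio3 cluster with a p, 72 were below 1 and 32 above, with a median of 0.93 in the authors' deposited table. Among those with no remark, 68 of 97 were below 1, beside 424 of 847 over all miRNAs with no remark. The members share 1 locus and their folds are not independent. After miR-3071-5p, the smallest p-values in the cluster were those of miR-453, at 1.67 (0.963 to 2.9, p = 0.0677), and miR-376a-3p, at 0.68 (0.446 to 1.04, p = 0.0724), in the authors' deposited table.

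**Figure D4:**
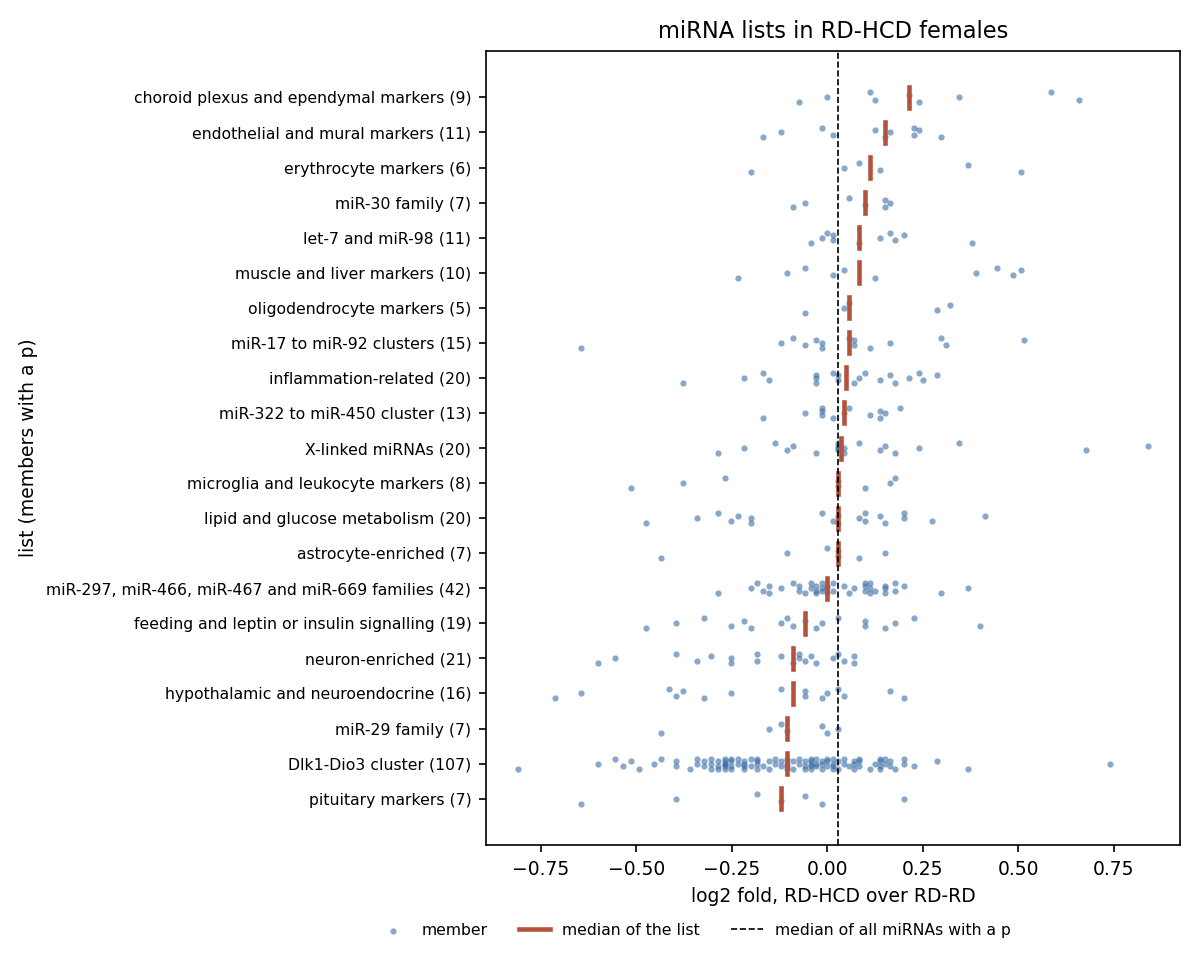
Deposited log2 folds of RD-HCD over RD-RD females (horizontal axis) for the members of each list (vertical axis, number of members with a p in brackets), with the median of the list as a red bar and the median of all miRNAs with a p as a dashed line. Choroid plexus and ependymal markers have the highest median fold, 1.16, and pituitary markers the lowest, 0.92.

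Other female groups were compared by the authors with the same 3 RD-RD libraries, so values are given side by side and agreement between them is no independent evidence. HCD-RD females were also normalised in a separate table. Among miRNAs with no remark in each comparison, an unadjusted p under 0.05 was listed for 84 of 648 (13%) in HCD-HCD females and 94 of 755 (12.5%) in HCD-RD females, beside 15 of 847 in RD-HCD females, in the authors' deposited tables. The standard deviation of the log2 fold over those miRNAs was 0.46 and 0.41 in these groups and 0.23 in RD-HCD females. The order numbers in the library names place RD-HCD and RD-RD females in 1 set of libraries, numbered 1 to 16, and HCD-HCD and HCD-RD females in another, so that maternal diet and library set cannot be told apart.

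Of the miRNAs above 1 in RD-HCD females, miR-3474 stood at 1.85 in HCD-HCD and 1.82 in HCD-RD females, and miR-1298-5p at 0.71 and 1.62, in the authors' deposited tables. miR-448-3p stood at 1 and 1.07, miR-344d-1-5p at 1.92 and 1.39, and miR-204-5p at 1.26 and 1.37, in the same order, in the authors' deposited tables. miR-1298-5p was thus on the other side of 1 in HCD-HCD females. Of those below 1, miR-5627-3p stood at 0.48 and 1.08, miR-7004-5p at 0.42 and 0.91, miR-6537-5p at 0.52 and 1.03, and miR-153-3p at 0.57 and 1.09 in HCD-HCD and HCD-RD females in the authors' deposited tables. In the same order, miR-5627-5p stood at 0.63 and 0.99, miR-3071-5p at 0.4 and 0.92, miR-7654-3p at 0.6 and 0.91, miR-7015-5p at 0.6 and 0.59, and miR-3963 at 0.79 and 0.99 in the authors' deposited tables. Of these, miR-7015-5p was low in HCD-RD females too. miR-7b-5p stood at 0.69 and 0.61, and miR-7a-5p at 0.72 and 0.44, so the miR-7 pair lay below 1 in all 3 groups compared with these RD-RD libraries in the authors' deposited tables. The differences between RD-HCD and the other female groups were not tested.

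Males with the same diets gave a comparison with other control libraries, 3 RD-HCD against 4 RD-RD, normalised in a table of their own. That table covers 13 libraries. By the order numbers in the library names, RD-RD males fall in the set numbered 1 to 16 and RD-HCD males do not. In males, offspring diet and library set therefore cannot be told apart, and this also holds for the male side of the sex differences. In the authors' deposited table, 69 of 860 miRNAs with no remark (8.02%) had an unadjusted p under 0.05 in males. The fold in females was set against that in males for 333 miRNAs with no remark and an implied error in both sexes, by a two-sided normal test on the log2 scale. At an adjusted p under 0.05 there were 0 differences (0%), and the smallest adjusted p was 0.787. There were 10 at an unadjusted p under 0.05 (3%), where an even spread would put 16.65. After the filter on fold size an even spread need not hold. The standard error of the difference had a median of 0.51.

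The difference with the smallest p was that of miR-344d-1-5p, at 1.92 in females and 0.58 in males in the authors' deposited tables, 1.73 higher in females on the log2 scale (95% interval 0.58 to 2.87, unadjusted p = 0.00306). miR-7004-5p was at 0.38 in females and 1.26 in males, miR-5627-5p at 0.5 and 1.32, and miR-6537-5p at 0.41 and 1.29, in the authors' deposited tables. Their female minus male differences were -1.73, -1.40 and -1.65 on the log2 scale. miR-5627-3p, at 0.35 in females and 1.35 in males, has no p in the male column of the authors' deposited table and could not be tested. The other miRNAs lower in females lay on both sides of 1 in males. Below 1 were miR-3071-5p at 0.79, miR-7015-5p at 0.84, miR-7b-5p at 0.89 and miR-153-3p at 0.96. Above 1 were miR-7654-3p at 1.18 and miR-3963 at 1.12, in the authors' deposited table. Further differences at a small p came from miRNAs farther from 1 in males than in females, with miR-96-5p at 0.33 in males and 1.12 in females and miR-34c-5p at 0.6 and 1.18 in the authors' deposited tables. Of the other miRNAs higher in females, miR-3474 stood at 0.96 in males, miR-1298-5p at 1.02, miR-448-3p at 1.24 and miR-204-5p at 1.42, in the authors' deposited table. For miR-3474 and miR-1298-5p the difference between the sexes was not tested. The let-7 and miR-98 family had a median fold of 1.29 in males beside 1.06 in females, and the Dlk1-Dio3 cluster one of 0.93 in both. Over all miRNAs with a p, low-count ones included, the median fold was 0.91 in males and 1.02 in females. Without low-count miRNAs the median log2 fold was -0.01 in both sexes. No difference between the sexes passed the adjusted threshold among the 333 miRNAs tested, and the intervals are too wide to call the sexes alike.

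**Figure D5:**
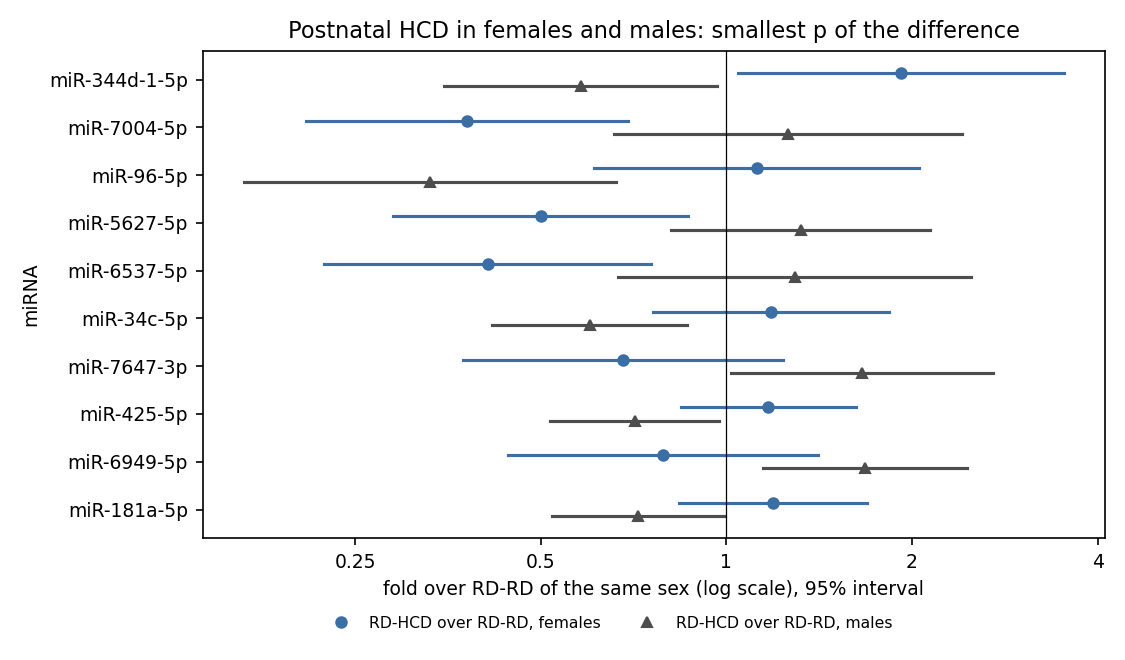
Deposited folds of RD-HCD over RD-RD (horizontal axis, log scale) in females (circles) and males (triangles), with implied 95% intervals as lines, for the 10 miRNAs with the smallest p of the difference between sexes. miR-344d-1-5p lies at 1.92 in females and 0.58 in males, and none of the 10 differences passed adjustment over the 333 miRNAs tested.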

How the data were processed

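Small RNA of 25 hypothalamus samples was sequenced as QIAseq miRNA libraries, and the files used hold comparisons between groups. The fold, a ratio of test to control group given to 2 decimals, was computed by the authors from values they normalised with DESeq2, as stated per the file headers. The deposited p-value is the authors' unadjusted DESeq2 value, per the file headers. The submitters' processing notes name build mm10, while the aligner, the rules for counting and strand, and the authors' DESeq2 version are not given in the sources used. A test on counts was not possible, since the tables hold no values per sample.

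From these values, p was adjusted with the Benjamini-Hochberg method over every miRNA that has one (threshold 0.05). Dividing a log2 fold of at least 0.1 in size by the normal score of its p gave an implied standard error and from it the 95% intervals. Sexes were compared by a normal test on the difference. Named were up to 10 miRNAs per direction at an unadjusted p under 0.05, up to 4 per list, and relatives of these by hairpin, seed or host gene. Members, lists and rules were chosen with earlier results of these data known. The error step was run on simulated data whose p-values were made with the same normal formula. Recovery of the errors was therefore fixed in advance, and how well they hold for DESeq2 p-values was not tested. Python 3.11.15, pandas 2.3.3, SciPy 1.17.1 and matplotlib 3.10.9 were used.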

Additional observations from a re-analysis of the deposited data

How the results depend on the processing

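Of the settings tried on the count of calls, 2 moved it from 0: an unadjusted p under 0.01 gave 4 miRNAs and an unadjusted p under 0.05 gave 15. No paired analysis was possible because the tables hold no values per sample, and leaving out single libraries was not run for the same reason. Centring subtracted a median log2 fold of -0.01 in both sexes, and 0 of 21 list medians changed sign under it or without low-count miRNAs. Every list median other than 0 was larger in size than this shift, so centring could not have moved one across 0. The sex difference gave 0 calls when restricted to 51 miRNAs at an unadjusted p under 0.05 in a sex (smallest adjusted p 0.121). These 51 were picked by the same p-values that enter the difference, so the 0.121 carries no separate weight. There were also 0 calls with low-count miRNAs included (529 miRNAs, 0.251 for miR-452-5p) and after centring (0.787). The same shift in both sexes cancels in the difference, so centring could not alter that result. With low counts included, 62 of 529 had an unadjusted p under 0.05 by the normal test, beside 10 of 333 in the main setting. That setting rests on implied errors of low-count miRNAs, which are not a guide to precision. Depth is unknown, and 3 libraries a group limit the precision.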

Other observations

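The piRNA entries of the same table were left out of the miRNA comparison. Of 103 entries, 88 had a p, and 28 of these were above 1 and 55 below, with a median fold of 0.96 in the authors' deposited table. An unadjusted p under 0.05 was listed for 6, all lower in RD-HCD females. The smallest p among all entries was that of mmu_piR_000958, at a fold of 0.37 (unadjusted DESeq2 p = 4.07e-04), beside 0.99 in HCD-HCD females, 0.91 in HCD-RD females and 1.36 in RD-HCD males in the authors' deposited tables. The other 5 were entries of mmu_piR_000691, which is listed at several genome copies that can share reads, at folds of 0.44 to 0.53 in the authors' deposited table. With piRNAs in the adjustment, the smallest adjusted p over 1585 entries was 0.506 and 0 miRNAs or piRNAs were called.

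Of the 847 miRNAs with no remark and a p, the 732 that matched a RefSeq mature sequence were placed by chromosome. Median deposited folds per chromosome were 0.96 to 1.04 in the authors' deposited table, except on chromosome 12. There, 77 of 112 were below 1 with a median of 0.93. That chromosome holds the Dlk1-Dio3 cluster, with 97 members with no remark, and also Mir5627 and Mir153. Of the 15 miRNAs at an unadjusted p under 0.05, 4 map to it.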
